A study of Homo sapiens with 6 samples.

Results

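PDK4, PDK3 and PDHA1 belong to the switch that controls how much pyruvate enters mitochondrial oxidation, and their expression was described in colon cancer cells depleted of ERRα. They are the genes of the pyruvate dehydrogenase complex and of its kinases that the authors' deposited comparison names, 3 of 1458 gene symbols in that table. The rule took the 6 probe sets with these names and the unbroken runs of consecutive probe set identifiers around them: 12 probe sets for PDK4, 13 for PDK3 and 13 for PDHA1, 38 of the 257430 probe sets in the value table. The 6 named probe sets were thus chosen by their difference between the groups on these same arrays (fold change and p-value), so their differences are given as a description and were not tested. The remaining probe sets of a run carry no gene name in the files and are not known to belong to the gene.

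HCT116, an established human colon carcinoma line, received, by lentivirus, a short hairpin RNA aimed at ERRα (shERRα) or a scrambled one (shscrambled). Both groups grew in medium with 10% serum, were infected for 48 h and were then kept in puromycin, which kills uninfected cells, for 48 h. Total RNA of 3 shERRα and 3 shscrambled samples, called biological replicates in the labels, was hybridised to Affymetrix whole-transcript arrays with many probe sets per gene. The labels name 1 hairpin against ERRα in 1 cell line, so loss of ERRα cannot be told apart from other effects of that hairpin, and nothing says whether replicates came from separate infections.

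The pyruvate dehydrogenase complex turns pyruvate, the end product of glycolysis, into acetyl-CoA for the citric acid cycle. PDHA1 encodes the α subunit of its first enzyme, which carries the serines that the pyruvate dehydrogenase kinases phosphorylate. Phosphorylation switches the complex off, and dedicated phosphatases switch it on again. PDK4 is the kinase known for its induction by fasting in muscle and other tissues, and it is a known target gene of ERRα and its coactivators. PDK3 is a kinase of the same family encoded on the X chromosome, as is PDHA1, whereas PDK4 lies on chromosome 7.

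ERRα binds DNA at a nuclear receptor half-site with a short extension, which makes the promoters of these genes the sequences of interest. The 250 bases before the RefSeq start of each gene (assembly GRCh38.p14) are shown 5′ to 3′ on the gene's strand, with every GGTCA, the core of the half-site, on either strand in capitals. They span chr7:95596517-95596766 on the minus strand for PDK4, chrX:24465036-24465285 on the plus strand for PDK3 and chrX:19343677-19343926 on the plus strand for PDHA1.
PDK4: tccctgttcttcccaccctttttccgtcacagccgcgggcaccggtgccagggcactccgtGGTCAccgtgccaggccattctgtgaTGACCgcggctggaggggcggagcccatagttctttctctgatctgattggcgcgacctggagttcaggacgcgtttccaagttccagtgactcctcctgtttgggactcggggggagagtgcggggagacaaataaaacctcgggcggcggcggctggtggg
PDK3: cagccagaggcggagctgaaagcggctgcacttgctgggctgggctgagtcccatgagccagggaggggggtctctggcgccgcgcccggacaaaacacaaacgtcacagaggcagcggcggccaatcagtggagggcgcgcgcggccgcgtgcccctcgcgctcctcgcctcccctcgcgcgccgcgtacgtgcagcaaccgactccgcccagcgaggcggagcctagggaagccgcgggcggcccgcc
PDHA1: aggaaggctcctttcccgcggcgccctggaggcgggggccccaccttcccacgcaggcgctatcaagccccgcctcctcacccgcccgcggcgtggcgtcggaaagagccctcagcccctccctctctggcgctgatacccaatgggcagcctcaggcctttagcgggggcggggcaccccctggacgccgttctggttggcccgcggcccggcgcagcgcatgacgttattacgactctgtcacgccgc

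The extended element TNAAGGTCA was not found in any of these windows on either strand, and it was present in 0.854% of the same windows of 35116 RefSeq promoters. Neither was AAGGTCA, present in 3.44% of promoters, nor AGGTCA, present in 12.1%, both of which overlap the longer element. The core GGTCA, contained in all of them, occurred in the PDK4 window once on the gene's strand, 189 to 185 bases before the start, and once on the other strand, 163 to 159 bases before it. It was absent from the PDK3 and PDHA1 windows and present in 32.6% of all promoters. GC content was 62.8% for PDK4, 73.6% for PDK3 and 71.6% for PDHA1. These letters say nothing about binding outside the windows.

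On the whole table, limma called 0 of 256161 probe sets at an adjusted p under 0.05, with 6962 higher (2.72%) and 11577 lower (4.52%) in shERRα at an unadjusted p under 0.05, and an equal-variance test also called 0 after adjustment, with 18564 at an unadjusted p under 0.05. No member passed either. Array medians lay between 4.28 and 4.43 log2 units. shERRα replicate 1 stood apart, with correlations of 0.867 to 0.877 with the other arrays, against 0.933 to 0.947 among those. The target of the hairpin, ESRRA, had 2.29, 2.60 and 2.23 log2 units in shERRα and 4.86, 5.10 and 5.28 in shscrambled, as the median of its 2 listed probe sets. The groups did not overlap, but these probe sets were listed for a difference on these same arrays. Of all probe sets, 8.37% had no overlap in this direction. The ESRRA mean in shERRα, 2.375 log2 units, lay under the 25th percentile of all probe set means, 2.41. The change was -2.71 at the listed probe sets and -1.84 (SE 0.33) over the run of 6. Of 10 colon epithelial markers only CDH1 carries a name in the files (7 probe sets, 5.93, 5.96 and 5.0 log2 units in shERRα, 7.69, 7.67 and 7.72 in shscrambled), so the cell type could not be checked further. Of markers of other cells, ITGAM (1 of 6 leukocyte markers), COL3A1 (fibroblast) and KDR (endothelial) were listed higher and COL1A2 lower in shERRα, each at 1 probe set with run changes between -0.11 and 0.43 log2 units. None of 6 adipocyte and muscle markers was listed. The part of these markers in the results was not tested.

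PDK4, the kinase most often tied to ERRα, was lower in shERRα at both of its listed probe sets. Probe set 8141101 had 0.41, 1.26 and 0.90 log2 units in shERRα, against 4.14, 4.53 and 3.90 in shscrambled. All shERRα arrays were thus more than 2.6 log2 units below every shscrambled array, and the group means were 0.86 ± 0.43 and 4.19 ± 0.31 (SD, n = 3 each). The log2 change was -3.34 (SE 0.34), or 10.1-fold lower. The shERRα level lay under the 25th percentile of all probe set means, 2.41 log2 units. Levels there were taken as near background, a limit chosen here and not measured, so this fold is not exact. Probe set 8141097 had 3.23, 3.41 and 2.64 log2 units in shERRα, against 5.31, 4.99 and 4.95 in shscrambled. The groups again did not overlap, at a brighter level, and the log2 change was -1.99 (SE 0.31), 3.98-fold lower. Both probe sets were listed for a difference on these arrays, and 8.37% of all probe sets had no overlap in this direction. In these bulk samples, fewer cells with the transcript and less of it per cell cannot be told apart.

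PDK3 was listed at 3 probe sets, all lower in shERRα. Probe set 8166516 had 1.30, 2.83 and 2.48 log2 units in shERRα, against 4.47, 4.86 and 4.78 in shscrambled, a log2 change of -2.50 (SE 0.44), 5.64-fold lower. Its lowest array was shERRα replicate 1, the array that stood apart, and without it the change was -2.04. The mean in shERRα, 2.20 log2 units, lay near background. Probe set 8166515 had 2.38, 3.07 and 2.58 log2 units in shERRα, against 5.11, 4.23 and 4.46 in shscrambled, a change of -1.92 (SE 0.35), 3.79-fold lower. Probe set 8166522 had 3.53, 4.57 and 4.27 log2 units in shERRα, against 5.80, 5.82 and 5.72 in shscrambled, a change of -1.65 (SE 0.34), 3.14-fold lower. None of these 3 probe sets overlapped between the groups, and shERRα replicate 1 was the lowest array at each. They were listed for a difference on these same arrays, so the lack of overlap is no separate support. Over all probe sets, 8.37% had every shERRα array below every shscrambled array.

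PDHA1, the phosphorylated subunit, was listed at 1 probe set with the smallest difference of the 6. Probe set 8166338 had 4.87, 5.04 and 5.02 log2 units in shERRα, against 6.28, 6.05 and 5.83 in shscrambled. The groups were 0.79 log2 units apart at their nearest arrays, and the spread within shERRα was small (SD 0.093, n = 3). The log2 change was -1.07 (SE 0.26), 2.11-fold lower, close to the 2-fold limit of the listing.

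**Figure D1:**
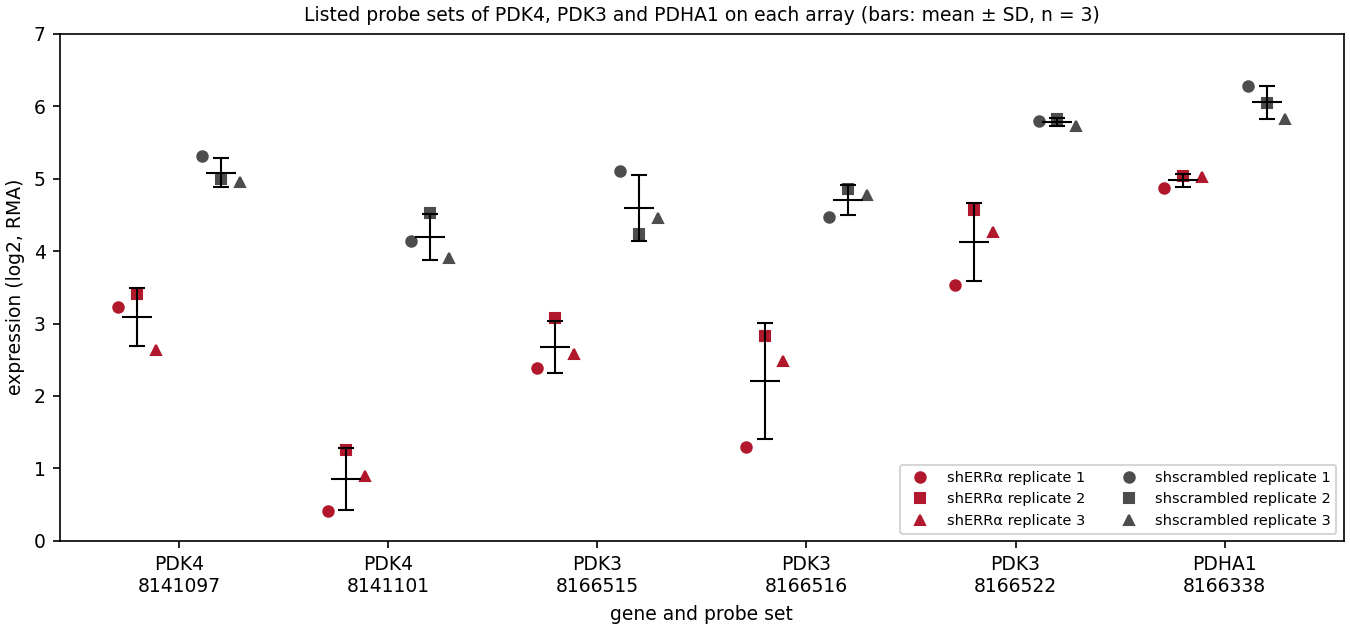
Log2 expression (y axis) of the 6 listed probe sets of PDK4, PDK3 and PDHA1 on each array, with shERRα left of shscrambled; points are arrays and bars the mean ± SD over 3 arrays. In every pair of columns all shERRα points lie below all shscrambled points, with the widest gap at PDK4 probe set 8141101 and the narrowest at PDHA1 probe set 8166338. The 6 were listed for their difference on these arrays, and 8.37% of all probe sets had no overlap in this direction.

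The authors' deposited table gives the same differences as remaining shares: 9.91% and 25.2% of the shscrambled level for the PDK4 probe sets, 17.7%, 26.4% and 31.9% for PDK3 and 47.5% for PDHA1. Its limits were an unadjusted p under 0.01 and a 2-fold change. The same limits applied to all 256161 probe sets called 0.557% as lower and 0.271% as higher in shERRα. Nearest to the limit on p, from inside, was PDK3 probe set 8166516. Nearest from outside, among probe sets past the fold, was 8141104 of the PDK4 run, 5.44-fold lower, with 2.80, 3.08 and 1.47 log2 units in shERRα and 5.27, 5.01 and 4.40 in shscrambled. On the limit of fold, among probe sets of the runs past the limit on p, PDHA1 probe set 8166338 was nearest from inside. Nearest from outside was probe set 8166336 of the same run, 1.68-fold higher in shERRα.

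The runs around the listed probe sets differed in how far the difference extended. In the PDK4 run, 10 of 12 probe sets were lower and 2 higher in shERRα by any amount (50.2% of all probe sets were lower), with changes between -3.34 and 0.55 log2 units. At least 2-fold lower were 7 of the 12, of which 5 were not listed; over all probe sets 6.84% were. In 6 of the 12 every shERRα array lay below every shscrambled array, as in 8.37% of all probe sets. Without shERRα replicate 1 these were 7 of 12, as in 13.4% of all probe sets. Here and for the other runs these shares are given as background, since the runs were chosen through this same contrast.

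Within the PDK4 run the unlisted probe sets had a median change of -1.03 log2 units. Probe set 8141099 had 4.83, 3.55 and 3.59 log2 units in shERRα and 6.19, 6.10 and 5.27 in shscrambled, 3.64-fold lower without overlap. Probe set 8141095 had 2.97, 2.67 and 2.13 log2 units in shERRα and 4.78, 3.53 and 3.48 in shscrambled, 2.53-fold lower without overlap. Others varied between replicates by as much as between the groups. Probe set 8141105 had 4.14, 3.31 and 0.75 log2 units in shERRα and 4.12, 3.85 and 4.09 in shscrambled, so that its 2.43-fold difference rested mainly on shERRα replicate 3. The last of the run, 8141106, did not share the difference. It had 5.89, 5.21 and 5.20 log2 units in shERRα and 5.21, 5.14 and 5.08 in shscrambled, a change of 0.29 (SE 0.30).

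In the PDK3 run, 11 of 13 probe sets were lower and 2 higher in shERRα (50.2% of all probe sets were lower), with changes between -2.50 and 0.29 log2 units. The difference was uneven along the run. At least 2-fold lower were 5 of 13, among them the 3 listed ones, against 6.84% of all probe sets. In 4 of 13 the groups did not overlap, against 8.37%, and the count was also 4 without shERRα replicate 1, against 13.4%. The 10 unlisted probe sets had a median change of -0.29. Probe set 8166514, just before 2 listed ones, had 3.98, 6.47 and 5.42 log2 units in shERRα and 6.91, 6.58 and 6.79 in shscrambled. Its change of -1.47 was -0.81 without shERRα replicate 1, the lowest array. Probe set 8166521 had 1.98, 4.19 and 3.80 log2 units in shERRα and 4.72, 5.33 and 3.32 in shscrambled, a change of -1.13, or -0.46 without that array. By contrast, probe set 8166519 had 5.80, 5.76 and 4.30 log2 units in shERRα and 5.64, 5.59 and 5.80 in shscrambled. It was above 2.41 log2 units on every array and had overlapping groups.

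In the PDHA1 run the difference was small and ran both ways. By any amount, 12 of 13 probe sets were lower in shERRα, against 50.2% of all probe sets, but 2 of 13 were at least 2-fold lower, against 6.84%, one of them the listed one. The other, 8166347, had 3.90, 6.0 and 6.18 log2 units in shERRα and 6.28, 6.52 and 6.93 in shscrambled, a change of -1.21 that was -0.48 without shERRα replicate 1. The 12 unlisted probe sets had a median change of -0.30. In 5 of 13 every shERRα array lay below every shscrambled array, against 8.37% of all probe sets, and the count was also 5 without shERRα replicate 1, against 13.4%. Among these, 8166348 had 6.98, 7.04 and 7.12 log2 units in shERRα and 7.39, 7.45 and 7.49 in shscrambled, a narrow difference of 1.32-fold. Probe set 8166346 had 8.17, 8.18 and 8.27 log2 units in shERRα and 8.57, 8.61 and 8.89 in shscrambled, 1.40-fold lower.

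The first probe set of the PDHA1 run went the other way. Probe set 8166336 had 6.91, 6.70 and 6.73 log2 units in shERRα and 6.0, 5.89 and 6.19 in shscrambled. All shERRα arrays lay above all shscrambled arrays, as in 5.69% of all probe sets, with a change of 0.75 (SE 0.25). It lies 2 places before the listed probe set. Whether it belongs to PDHA1 is not known from the files.

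**Figure D2:**
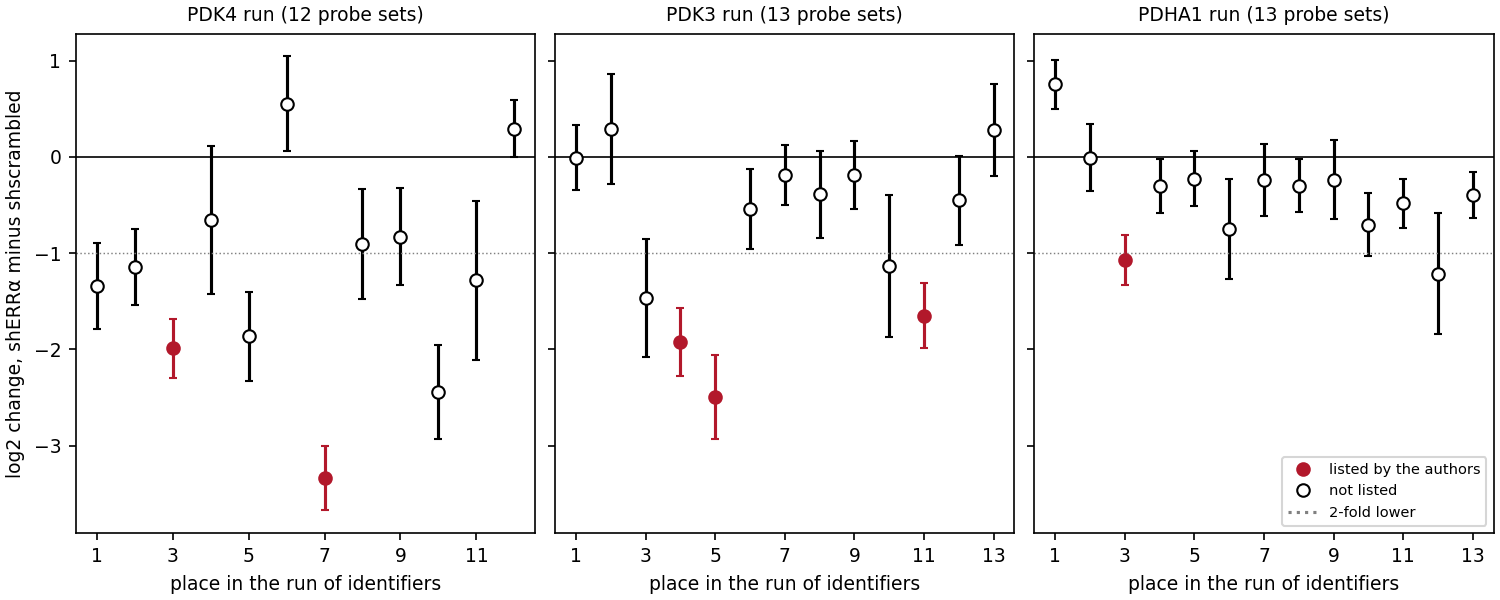
Log2 change, shERRα minus shscrambled (y axis, bars SE of the limma fit), of each probe set in the order of identifiers (x axis) for the runs of PDK4, PDK3 and PDHA1; filled points are listed by the authors. The PDK4 run has 7 points at or below the dotted 2-fold line, the PDK3 run 5 and the PDHA1 run 2, and the first point of the PDHA1 run lies above 0 at 0.75.

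Each run was also summarised by its median per array. The runs were chosen through their listed probe sets and contain them, so these values are no independent support for a direction. All 3 changes were smaller than those of the listed probe sets. The PDK4 run had medians of 2.89, 3.36 and 2.39 log2 units in shERRα, against 4.13, 4.23 and 3.75 in shscrambled. The change was -1.16 (SE 0.28), 2.23-fold lower, and the groups did not overlap. The PDK3 run had 3.35, 4.07 and 3.80 log2 units in shERRα, against 4.72, 4.86 and 4.46 in shscrambled. The change was -0.94 (SE 0.25), 1.92-fold lower, again without overlap, though the median of the single probe set changes was only -0.45. The changes of the PDK4 and PDK3 runs differed by less than their errors, and their order turned without shERRα replicate 3 (PDK4 -0.91, PDK3 -0.97). The PDHA1 run had 6.91, 6.69 and 7.0 log2 units in shERRα, against 6.80, 7.05 and 7.14 in shscrambled. These overlapped, and the change of -0.13 (SE 0.22) was smaller than its error. Its value lay between -0.23 without shscrambled replicate 1 and -0.04 without shERRα replicate 2, and the mean over the run gave -0.40 (SE 0.20).

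**Figure D3:**
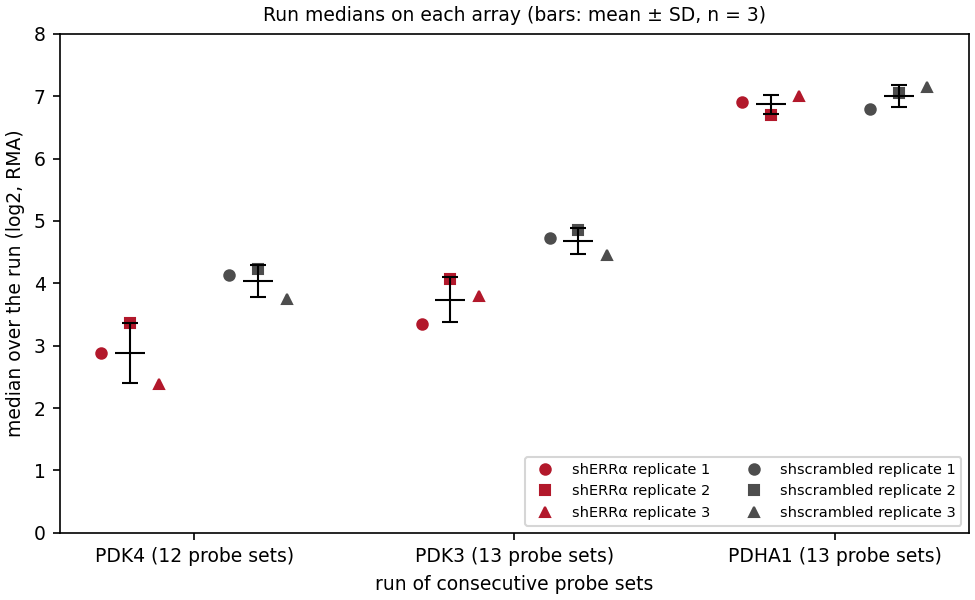
Median log2 expression over the probe sets of each run (y axis) on each array for PDK4, PDK3 and PDHA1, with shERRα left of shscrambled; bars are the mean ± SD over 3 arrays. The groups are apart for PDK4 and PDK3 and overlap for PDHA1, near 6.9 log2 units.

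Set beside the 19182 runs of at least 3 probe sets, whose median change was -0.0018 log2 units, 0.819% had a lower change than the PDK4 run, 2.00% a lower one than the PDK3 run and 35.7% a lower one than the PDHA1 run. Of all runs, 10.5% had every shERRα median below every shscrambled median, and 1.56% were at least 2-fold lower by their median. These shares describe only where the runs lie, since the runs were chosen for holding probe sets listed as lower in this same contrast, which partly places them there. They also hold only for the median per array. The PDHA1 run had a larger change by its mean (-0.40) and as the median of single changes (-0.30), and its place by those was not worked out.

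**Figure D4:**
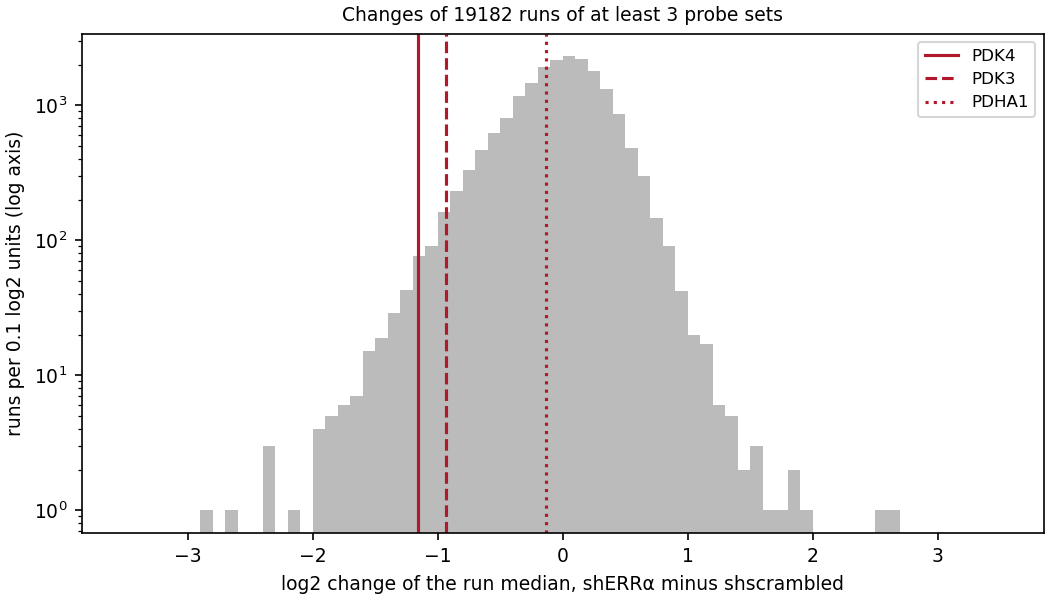
Number of runs (y axis, log scale) by the log2 change of the run median, shERRα minus shscrambled (x axis, bins of 0.1), for 19182 runs of at least 3 probe sets. The vertical lines mark the PDK4 run at -1.16 and the PDK3 run at -0.94 in the lower tail and the PDHA1 run at -0.13 near the centre; all 3 were chosen for holding probe sets listed as lower.

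The listed probe sets of both kinases had similar profiles over the 6 arrays. Both were listed for a difference on these arrays, so the likeness describes mainly the size of that difference. As medians over the listed probe sets, PDK4 had 1.82, 2.33 and 1.77 log2 units in shERRα and 4.73, 4.76 and 4.42 in shscrambled, and PDK3 had 2.38, 3.07 and 2.58 in shERRα and 5.11, 4.86 and 4.78 in shscrambled. After each profile was centred on its own mean, they differed by 0.24 log2 units (root mean square over 6 arrays). PDK4 and PDHA1 differed by 0.81 and PDK3 and PDHA1 by 0.61. In both kinases shERRα replicate 2 was the highest of the shERRα arrays. The PDK4 medians in shERRα all lay under 2.41 log2 units, near background.

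By the same measure each member was compared with 293 genes, the other members and genes listed in 1 direction by 2 or more distinct probe sets. The profile most like that of PDK4 was RABGAP1L, a Rab GTPase-activating protein (0.13 log2 units), followed by the guidance ligand SLIT2 (0.22) and ESRRA itself (0.23). RABGAP1L had 2.73, 3.50 and 3.01 log2 units in shERRα and 5.75, 6.05 and 5.57 in shscrambled. For PDK3 they were the metalloprotease ADAMTS6 (0.20), the calcium-dependent kinase CAMK4 (0.20) and DENND1B (0.21). For PDHA1 they were CRIPT (0.060), the phosphatidylinositol transfer protein PITPNA (0.10) and the RNA-binding protein ZFP36L2 (0.11). All of these genes were listed for a difference on these arrays, so the likeness describes mainly the size of that difference.

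The wider pathway held 84 genes in 8 lists, and 11 were listed lower and 3 higher in shERRα. These include ESRRA, the hairpin's target, and PDK4, PDK3 and PDHA1, which were chosen from this same contrast. Over all probe sets the same limits called 0.557% as lower and 0.271% as higher. Only listed probe sets carry names, so the share of all genes that were listed is not known. The counts here and in the single lists below are thus a description and show no enrichment. Among genes listed in a single direction the share of lower ones was 65.0%. In the complex itself PDHA1 was listed, 1 of 6, and among kinases and phosphatases PDK3 and PDK4, 2 of 7. For the rest of both lists, among them PDHB, DLAT, PDK1, PDK2 and the phosphatases PDP1 and PDP2, the files carry no named probe set, so their levels were not analysed here.

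Among genes that supply cofactors to the complex, SLC19A2, a thiamine transporter of the plasma membrane, was listed lower at 2 probe sets. It had 5.46, 5.64 and 5.62 log2 units in shERRα and 6.69, 7.0 and 6.85 in shscrambled, 2.41-fold lower (run change -0.81, SE 0.23). The groups did not overlap, and the run change had the listed sign. Neither is independent support, since the 2 probe sets were listed for their difference on these arrays and belong to the run of 11.

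Of 15 genes of pyruvate supply and other fates, GPT2 and PCK2 were listed lower and ME3 higher, each at 1 probe set. GPT2, the mitochondrial alanine transaminase, had 5.15, 5.78 and 4.86 log2 units in shERRα and 6.61, 7.28 and 6.84 in shscrambled (run change -0.61, SE 0.22). PCK2, the mitochondrial phosphoenolpyruvate carboxykinase, had 3.87, 4.02 and 3.36 log2 units in shERRα and 4.99, 5.02 and 5.63 in shscrambled (run change -0.62, SE 0.25). ME3, a mitochondrial malic enzyme, had 3.68, 3.72 and 3.16 log2 units in shERRα and 2.50, 2.44 and 2.11 in shscrambled, close to background (run change 0.33, SE 0.25). The listed probe sets of all 3 genes differed more than their runs.

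The related oxo acid dehydrogenases had 2 of 7 genes listed lower and 1 higher, each at 1 probe set. DBT, a core subunit of the branched-chain complex, had 3.37, 4.21 and 4.61 log2 units in shERRα and 5.81, 5.81 and 5.90 in shscrambled, 3.42-fold lower, and its run of 17 probe sets had a change of -1.33 (SE 0.41). BCKDHB, a subunit of the same complex, was listed higher, with 2.87, 2.54 and 2.47 log2 units in shERRα and 1.38, 0.90 and 1.05 in shscrambled, near background. Its run of 15 probe sets had the opposite sign, with a change of -1.04 (SE 0.22). OGDHL, a relative of the oxoglutarate dehydrogenase, had 1.54, 0.98 and 0.38 log2 units in shERRα and 4.22, 3.07 and 4.14 in shscrambled, also near background in shERRα (run change -0.79, SE 0.28).

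In the citric acid cycle SDHD, a membrane anchor of succinate dehydrogenase, was listed lower, 1 of 17, with 5.70, 5.61 and 6.14 log2 units in shERRα and 7.57, 7.39 and 7.79 in shscrambled. This rests on 1 probe set that is alone in its run, so there is no run change to set beside it. No glycolysis gene of 13 was listed. Among 12 regulators known to act on PDK4 transcription, ESRRA and the coactivator PPARGC1B were listed, both lower. PPARGC1B had 4.13, 4.37 and 4.13 log2 units in shERRα and 5.64, 5.64 and 4.98 in shscrambled at 1 probe set (run change -0.37, SE 0.23).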

How the data were processed

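The value table holds log2 expression per probe set after RMA, run by the authors according to the submitters' processing notes. Its decimal marks were lost, so each deposited value is a score made of digits only. The software version, annotation and build were not given in the sources used here. Marks were restored by reading 7-digit strings as 10 or more. Values that could be read either way (90472) took the reading nearer to the median of the unambiguous values of the probe set. In 159 probe sets all values were ambiguous and were read as low. Of the undecided probe sets, 12 listed ones took the reading that gave the deposited fold change. Their match in fold below was thus fixed in advance. The other 1269 undecided probe sets were left out. In the 3 runs described, 4 of 228 values were ambiguous, all read as low. The deposited comparison was then recovered for all 2122 listed probe sets, fold changes to 0.001 log2 units and p-values to 1%, with an equal-variance test. That table holds, per the file headers, the ratio of shERRα over shscrambled as a fold and an unadjusted p-value. PDK4, PDK3 and PDHA1 were named through their RefSeq accessions.

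limma 3.58.1 (R 4.3.3) was fitted to all 256161 probe sets, which were called at 0.05 after Benjamini-Hochberg adjustment. The same fit to the medians of 19182 runs gave changes and SE as a description, without calls. The code was tested on simulated data. Precision is limited by the number of arrays, and p-values reflect the spread among these samples alone, which may be technical. Members, gene lists and settings were chosen with earlier results of these data known. Named are the members, the listed genes of the pathway lists (1 of those counted is not reported here), and for each member the 3 genes most like it. Probe sets singled out in the runs were chosen after their values were seen. Alternatives covered the replicate block, single arrays left out, run summaries, brightness, scaling, array weights and ambiguous values.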

Additional observations from a re-analysis of the deposited data

How the results depend on the processing

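All 72 log2 changes of the 3 genes under an alternative stayed below 0. This says little about stability, because the members were listed as lower on these arrays. The 72 include the replicate block, which by construction moved no change. The brightness setting and leaving out ambiguous values also left the PDHA1 run at -0.13. Of the 72, 68 moved by less than the spread between replicates. The exceptions were the PDK3 run, at -0.33 over its probe sets above the median level and -0.45 as the median of single changes (against -0.94), and the PDHA1 run, at -0.40 by its mean and -0.30 as the median of single changes (against -0.13). The cause was not tested. Leaving out each array gave -1.40 to -0.91 for the PDK4 run, -1.10 to -0.74 for the PDK3 run and -0.23 to -0.04 for the PDHA1 run, and -2.84 to -2.56, -2.44 to -2.09 and -1.19 to -0.96 for the listed probe sets of PDK4, PDK3 and PDHA1. In each setting run, leave-one-out included, limma's adjusted calls numbered 0, which shows no stability, since none of the changes made in the simulated data was called either.

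With a replicate block the changes were unchanged by construction, with SE 0.22 for the PDK4 run, 0.24 for the PDK3 run and 0.22 for the PDHA1 run. Same-numbered arrays had small correlations of their deviations from the group means, 0.068, 0.048 and 0.084, yet all 6 arrays correlated best with their own number. Deviations within a group of 3 depend on each other, so these 6 are not separate observations. The labels do not say whether the numbers mark pairs, and the main fit did not pair them. At p under 0.01 and 2-fold the whole table gave 1427 lower and 695 higher, and 675 and 392 with the block. Leaving out each array gave 775 to 1705 lower and 513 to 906 higher. The count of lower ones was 775 without shscrambled replicate 2 and 909 without shscrambled replicate 1. Probe sets above the median level alone gave 854 lower and 270 higher. These come from fewer probe sets, so the counts do not compare directly with those of the whole table. The settings of this rule, and leaving out shERRα replicate 1 for counts without overlap, were added after the values were seen. Levels under 2.41 log2 units, the 25th percentile of all probe set means, were taken as near background, where folds are not exact. In the PDK4 run 3 of 12 probe sets had a shERRα mean there, in the PDK3 run 3 of 13 and in the PDHA1 run 0 of 13.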
